A study of Mus musculus with 2 samples.

Results

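The sites described here are the peaks that were called with an antibody against KLF4 in WT lesions, had no counterpart in KO lesions, and lay thinly spread over protein-coding genes, with 1 or 2 such peaks in a gene. They were chosen by 4 conditions: the peak lay on chromosomes 1 to 19 or X, it overlapped no KO peak by even 1 bp, its midpoint lay in no pseudogene span, and it lay in 1 or more protein-coding gene spans, each holding at most 2 such peaks. In all, 664 of the 2251 WT peaks met them, which is 29.5% of the WT list and 38.9% of the 1707 WT-only peaks on these chromosomes. They fell in 576 genes, of which 469 held 1 and 107 held 2. The presence and absence of peaks in these 2 lists chose the sites, so that pattern is a description and not a result; of all WT peaks, 84.2% overlapped no KO peak. There were no replicates, so no difference below was tested.

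Chromatin immunoprecipitation with sequencing (ChIP-seq) recovers the DNA bound to a protein with an antibody and reads it by sequencing; a peak is a stretch where reads pile up above background. The tissue was frozen BCA from atherosclerotic lesions of C57BL/6 mice fed a Western diet, and the labels call it a mixture of SMC (smooth muscle cells), epithelial cells, macrophages and others. The antibody, listed under GKLF, another name of KLF4, was the same for both libraries, of which 1 was labelled WT and 1 KO. The labels give neither the deleted gene, the cells that lost it, nor the age, sex or number of animals, and since the tissue is mixed, a change in the share of a cell type and a change within its cells cannot be told apart.

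KLF4 is a zinc finger transcription factor that binds GC-rich sites with a CACCC core. In cultured smooth muscle cells it is known to repress contractile genes such as Acta2 and Tagln, which depend on serum response factor and myocardin, and it is also one of the factors used to reprogram cells to pluripotency. In atherosclerosis, smooth muscle cells are known to lose contractile markers and to take on features of other cell types.

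A part of these peaks lay in an annotated promoter window. No such share of other peaks is given here, so the count is a description only. Of the 576 genes, 476 (82.6%) had an entry among the RefSeq promoter windows of build GRCm38.p6, numbered like mm10; each window runs from 250 bases before to 50 after a start. Of the 664 peaks, 16 overlapped a window, 12 of them a window of their own gene. For 6 peaks, 90 or more bases lay in a window and upstream of its start. Those bases are printed because they are the longest stretches of the peaks whose letters the promoter table holds. Each runs 5′ to 3′ on the strand of the gene that holds the peak. Capitals mark either CACCC or its complement GGGTG, or an ATG from which the reading frame meets no stop up to the end of the stretch.
Ube2m (chr7:13037628-13037737, minus strand): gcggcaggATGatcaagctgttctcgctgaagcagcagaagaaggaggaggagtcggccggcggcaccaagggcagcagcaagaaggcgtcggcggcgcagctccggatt
Psma7 (chr2:180042272-180042376, minus strand): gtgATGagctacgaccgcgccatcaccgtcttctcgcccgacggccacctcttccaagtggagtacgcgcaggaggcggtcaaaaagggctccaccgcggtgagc
Ahcyl1 (chr3:107696164-107696283, minus strand): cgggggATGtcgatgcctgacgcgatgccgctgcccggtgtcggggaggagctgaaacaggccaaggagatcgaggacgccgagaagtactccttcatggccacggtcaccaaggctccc
Dnajb1 (chr8:83608384-83608531, plus strand): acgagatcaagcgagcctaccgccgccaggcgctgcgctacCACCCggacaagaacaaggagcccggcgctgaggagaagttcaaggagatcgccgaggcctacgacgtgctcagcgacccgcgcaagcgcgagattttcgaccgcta
Ddx17 (chr15:79533064-79533167, minus strand): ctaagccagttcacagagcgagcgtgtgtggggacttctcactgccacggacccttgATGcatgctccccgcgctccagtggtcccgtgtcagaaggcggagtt
Tnc (chr4:63984536-63984730, minus strand): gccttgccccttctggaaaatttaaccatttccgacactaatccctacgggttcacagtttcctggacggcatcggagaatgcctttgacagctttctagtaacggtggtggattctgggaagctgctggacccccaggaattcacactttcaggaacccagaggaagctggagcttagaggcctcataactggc

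CACCC, searched on both strands, occurred in 1 of the 6 printed stretches, that of Dnajb1. Over the full windows that a peak touched, 15 of 21 held CACCC, or 71.4% (95% Wilson interval 50.04 to 86.2%), against 57.5% of all 32851 windows. GGGNGNGG, a looser GC-rich pattern of KLF sites, was held by 7 of the 21 (33.3%, 17.2 to 54.6%) against 49.5% of all windows. A CArG box, the serum response factor site, was held by 0 of the 21 (which allows up to 14.3%, 3 counts of the total), against 1.63% of all windows. Several windows belong to 1 peak, and a match or its absence describes these letters only.

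The highest-scoring peaks that touched a window were those of Ube2m (161), Brk1 (153), Osbpl10 with Rps27rt (139), Psma7 (134), Tnc (113) and S1pr3 (99.25). Brk1 encodes a small subunit of the actin-regulating WAVE complex, and S1pr3 a sphingosine phosphate receptor. The printed stretches lay inside the genes that held the peaks. In Ube2m, which encodes the conjugating enzyme for the ubiquitin-like protein NEDD8, the peak had its midpoint 595 bp inside the span, upstream of a start annotated further in. In Psma7, a gene of the 20S proteasome, the peak lay 140 bp inside the gene and in the promoter window of the neighbour Ss18l1 on the other strand. The peak of Ahcyl1 (score 62.6), a regulator of calcium release, lay 337 bp inside the span, and that of Dnajb1 (54.6), a heat shock co-chaperone gene, 282 bp inside. The peaks of Ddx17 (56.2), an RNA helicase gene, and Tnc, the tenascin C gene, lay 13.6 kb and 62.4 kb from the 5′ end, the latter in the window of the long noncoding RNA gene 8030451A03Rik on the other strand.

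Long open reading frames ran through some of these stretches. Counted from and with the ATG in capitals, there were 34 codons without a stop in Ube2m, 34 in Psma7 and 38 in Ahcyl1. When all promoter windows were cut at the same place and length, 2.69%, 1.23% and 1.96% of them held an ATG with as long an open run. In Ddx17 the run was 15 codons, and 23.9% of windows held as many. Dnajb1 and Tnc held no such ATG; 2 and 1 of their 3 frames on the gene's strand had no stop, while 46.1% and 33.25% of windows had at least 1 open frame. The window pieces used for these shares lay upstream of an annotated start, while the printed stretches lay inside the genes that held the peaks. The shares therefore do not set the peaks apart from other sequence inside genes. The reading frames were counted after the sequences had been seen. No exon table was used here, so whether a peak lay in an exon, an intron or an untranslated region was not determined.

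One peak covered a miRNA hairpin. The peak in Chpf2, a chondroitin polymerizing factor gene, on chromosome 5 at 24592108 to 24592231 (score 63.3), spanned all 98 bases of the Mir671 hairpin (24592114 to 24592211, plus strand). Its mature forms, from RefSeq, are shown with the seed, bases 2 to 8, in capitals.
mmu-miR-671-5p: aGGAAGCCcuggaggggcuggag
mmu-miR-671-3p: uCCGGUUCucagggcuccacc
This was the only overlap with a miRNA, and 0 of the 664 peaks overlapped a small nucleolar RNA or a transfer RNA gene, while 25 overlapped a long noncoding RNA gene. Shares of other peaks are not given for these classes, so the counts are a description only. Chpf2 also held a second peak (score 72.8).

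The scores of these peaks were mostly modest, with a few very high ones. The score is the authors' value for each peak, read as 10 times the negative log10 of its p-value, and it ranks peaks within 1 list. The median was 76.5 (quartiles 62.3 and 117, range 50.2 to 1667), below the median of the whole WT list, 88.3, which 257 of the 664 (38.7%) exceeded. WT-only peaks in genes with 3 or more had a median of 99.9, those on pseudogenes 99.7, those outside genes 68.7, and the 83 WT peaks in coding genes that did have a KO partner 256. The 300 KO-only peaks in coding genes had a median of 55.3 in their own list. No test was made of these differences. The peaks were narrow, with a median width of 153 bp (quartiles 128 and 178), and 17 were wider than 300 bp. Scores repeated: 234 of the peaks shared their score with another of the set, 10 of them at 99.25.

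**Figure D1:**
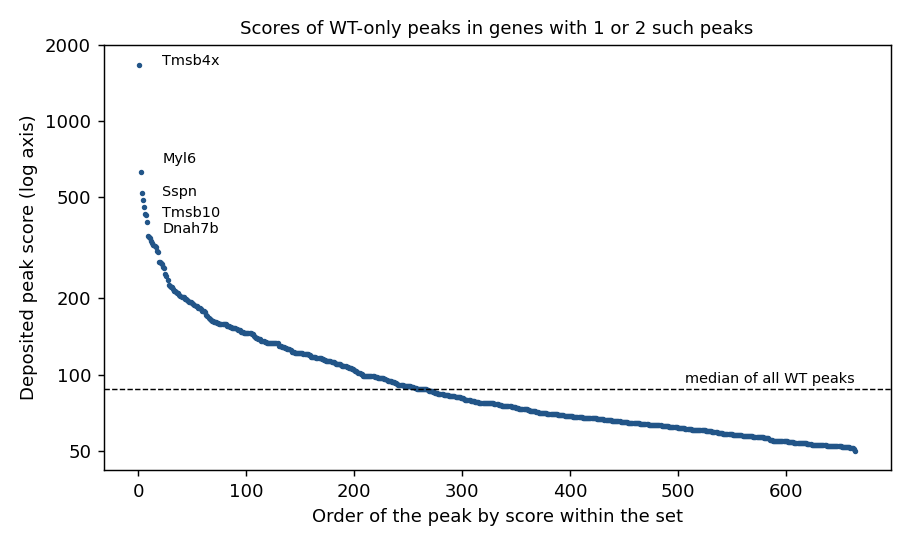
Deposited score (log axis) of each of the 664 WT-only peaks in genes with 1 or 2 such peaks, ordered from highest to lowest; each point is 1 peak and the dashed line is the median of all WT peaks, 88.3. The Tmsb4x peak at 1667 stands apart from the next, Myl6 at 632, and most points lie under the dashed line.

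The 3 highest peaks were in Tmsb4x (gene ID 19241), Myl6 (17904) and Sspn (16651). Tmsb4x, which encodes the actin-sequestering peptide thymosin beta 4, held the highest peak, 281 bp wide on chromosome X at 167207258 to 167207538 (score 1667), with its midpoint 305 bp from the 3′ end of the gene. Myl6, the non-muscle and smooth muscle essential myosin light chain gene, followed with a peak on chromosome 10 at 128492627 to 128492748 (score 632). Sspn, the gene of sarcospan in the dystrophin complex, had a peak on chromosome 6 at 145932792 to 145933047 (523), 1.05 kb inside the 5′ end. Only these 3 of the 664 ranked among the 100 highest WT peaks.

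The next 12 held genes of the cytoskeleton, translation and energy metabolism beside others. Tmsb10, a paralogue of Tmsb4x, had a score of 487, on chromosome 6 at 72957912 to 72958018. Tubb3, a beta-tubulin gene, reached 426, Acta1, the skeletal muscle actin gene, 402, and Tuba1b, an alpha-tubulin gene, 325. Tgfbi, which encodes a matrix protein induced by TGF-beta, reached 351, and Syncrip, the gene of hnRNP Q, 350. Eef2, the translocation factor of translation, reached 336 and Atp5b, the beta subunit of ATP synthase, 331. Serf2, a small chaperone-like protein gene, stood at 429. The other 3 of the 15 highest were Dnah7b (459), an axonemal dynein gene, Aldoart2 (346), a retrocopy of the aldolase gene Aldoa, and Rsph3b (322), a radial spoke gene whose near copy Rsph3a also held a site.

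The peaks leaned towards the 3′ end of their genes. The strand was known for 536 peaks that lay in a single span. Of these, 66.04% (95% Wilson interval 61.9 to 69.9%) lay in the 3′ part of the span beyond its midpoint, where an even spread would put 50%. The last 20% of the span held 30.8% of peaks (27.02 to 34.8%) and the first 20% held 15.7% (12.8 to 18.99%). The last 10% alone held 93 peaks (17.4%), and the stretch from 20 to 30% held 23 (4.29%). In WT-only peaks of genes with 3 or more, 41.5% (36.1 to 47.2%) lay in the last 20% and 11.96% (8.77 to 16.1%) in the first. In KO-only peaks of coding genes the shares were 24.2% (18.95 to 30.3%) and 20.5% (15.6 to 26.4%). In the 56 WT peaks of coding genes shared with KO, they were 32.1% (21.4 to 45.2%) and 23.2% (14.1 to 35.8%). Of these 56 shared peaks, 51.8% (39.0 to 64.3%) lay beyond the midpoint. Many peaks in the last 20% were thus not particular to WT-only peaks. These intervals cover counting error over peaks only, and no test of the difference was made.

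**Figure D2:**
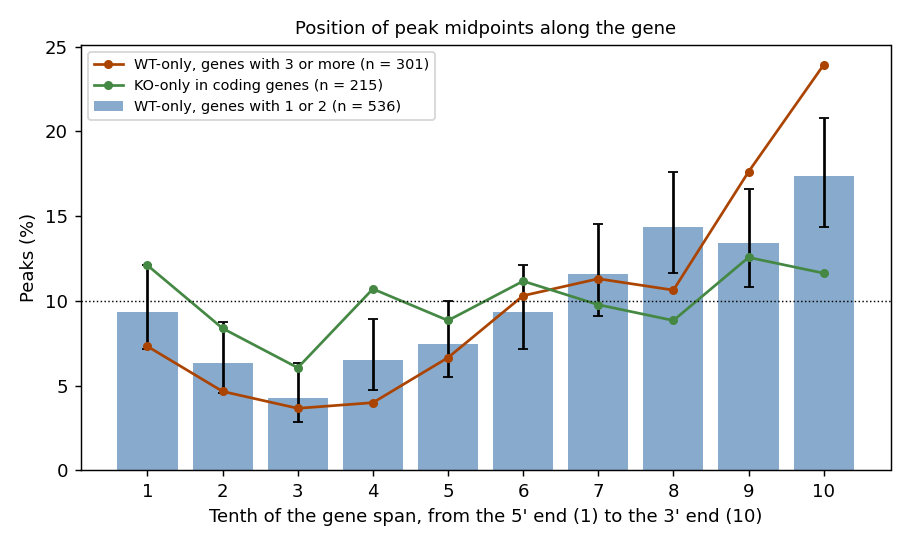
Share of peak midpoints (%) in each 10% of the gene span from the 5′ end (1) to the 3′ end (10); bars with 95% Wilson intervals are the 536 peaks of the set with a known strand, lines are WT-only peaks of genes with 3 or more (301) and KO-only peaks in coding genes (215), and the dotted line marks an even 10%. The bars rise from 4.29% in the bar at 3 to 17.4% in the last.

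The lean was seen in longer genes and not in short ones; the difference was not tested. In genes spanning under 10 kb, 20% (14.4 to 27.1%) of 150 peaks lay in the last 20% and 21.3% (15.5 to 28.6%) in the first. This class includes ribosomal protein genes, whose peaks with a known strand lay mostly in the first 20% and never in the last. The shares without that family were not counted. In spans of 10 to 50 kb the shares were 34.4% (28.7 to 40.6%) and 14.5% (10.6 to 19.5%) of 241 peaks. In spans of 50 kb or more they were 35.9% (28.5 to 43.9%) and 11.7% (7.45 to 17.97%) of 145. The median score fell from 90.7 in the shortest class to 68.6 in the longest. At scores of at least 100, 27.1% (20.9 to 34.2%) of 170 peaks lay in the last 20%, and under 100 it was 32.5% (27.9 to 37.5%) of 366.

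Both gene ends were close for many peaks. Within 1 kb of either end of a span lay 161 of the 664 (24.2%, 21.1 to 27.7%), against 19.6% (16.1 to 23.7%) in genes with 3 or more. For KO-only peaks in coding genes it was 4.33% (2.55 to 7.27%), and for WT peaks there shared with KO 10.8% (5.81 to 19.3%). A fixed 1 kb takes up more of a short gene than of a long one. The gene lengths of these groups were not compared, and the differences were not tested. Among the 536 with a known strand, 65 lay within 1 kb of the 5′ end and 63 within 1 kb of the 3′ end. Measured to every annotated start of the own gene, 81 of 553 peaks (14.6%, 11.9 to 17.8%) lay within 1 kb, and the median distance was 9.50 kb.

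In the 107 genes with 2 peaks, the gap between the peaks varied widely. It was not set against gene length, and a short gene such as Ubb (2.04 kb) allows only a small gap. The median gap was 1.95 kb (quartiles 0.528 and 7.78 kb), and 54 pairs were under 2 kb apart, 26 of them under 500 bp. The gap ranged from 4 bp in H3f3b, a replacement histone H3.3 gene, to 416 kb in Ntm, a neural adhesion gene; these 2 extremes were named after their values were seen. The scores of a pair differed by a median of 39.6 (quartiles 13.02 and 87.7); since the score is a scaled logarithm of p, such a difference is not a fold of binding. The higher score belonged to the peak nearer the 3′ end in 40 of 89 pairs with a known strand (44.9%, 35.0 to 55.3%).

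The 5 genes with the highest summed scores were Tmsb4x, Acta1, Tubb3, Maged1 and Serf2. In Tmsb4x the peaks scored 1667 and 130, and their difference of 1537.5 was the largest of the 107 pairs. Acta1 held 250 at the 3′ side and 402 at the 5′ side, 1.07 kb apart in a gene of 3.02 kb. Tubb3 held 146 and 426 only 38 bp apart, both within 1 kb of the 3′ end. Maged1, a gene of the MAGE family of signalling adaptors, held 184 and 319, and Serf2 held 66.5 and 429. Among the 5, the higher peak lay on the 3′ side in all but Acta1.

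**Figure D3:**
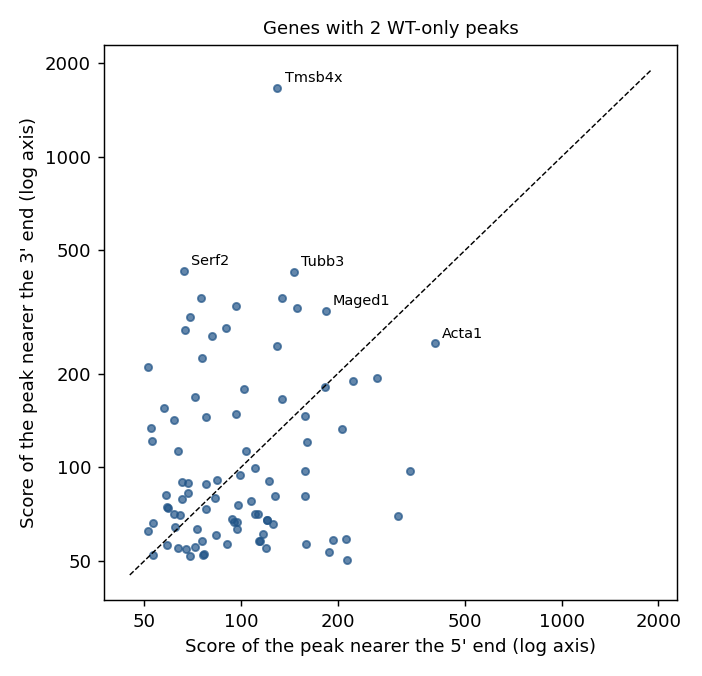
Scores of the 2 peaks of a gene for the 89 pairs with a known strand, the peak nearer the 5′ end on the horizontal and that nearer the 3′ end on the vertical axis (both log); each point is 1 gene and the dashed line marks equal scores. Points fall on both sides of the line, 40 above it, and Tmsb4x lies farthest from it.

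**Figure D4:**
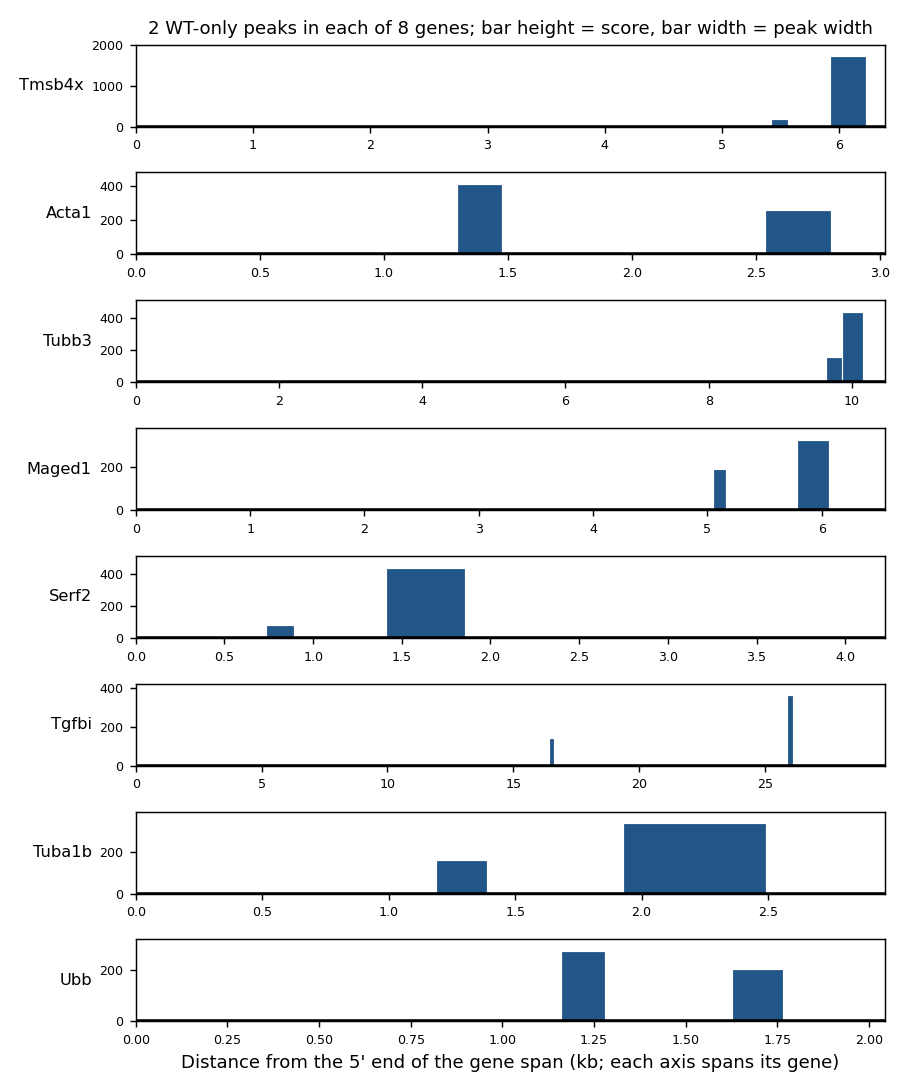
Position of both peaks in the 8 genes with the highest summed scores, as distance from the 5′ end of the gene span (kb, to scale within each gene); bar height is the deposited score and bar width the peak width. In Tmsb4x and Tubb3 both bars sit in the last 20% of the gene, while in Serf2 both sit before its midpoint.

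Some genes that held these sites also held a KO peak. Of the 576 genes, 23 (3.99%) held a KO peak elsewhere in the span, 27 peaks in all, with scores of 50.3 to 283 and a median of 55.5. Of these KO peaks, 22 were KO-only, and 5 of the genes also held a WT peak that was shared with KO. Over all protein-coding genes, 1.35% held a KO-only peak, which is not the same count, since the 23 genes include peaks shared with WT. Genes with a site also had longer spans, with a median of 24.6 kb against 17.3 kb for all coding genes. The shares were not adjusted for this. The nearest KO peak lay a median of 991 kb from a site, and for 13 sites it lay within 10 kb. Hnrnpa1, Col4a1 and Synpo were among the genes with both, at KO scores of 54.1, 59.6 and 58.4; these 3 were named after their values were seen.

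Some sites sat just inside the limits of the choice. The closest to a KO peak was in the mucin gene Muc6, 11 bp away (WT score 59.3, KO score 50.3). In Gm525, a predicted gene, the gap was 42 bp (WT 148, KO 266), and in LOC100504180 it was 95 bp (WT 54.8, KO 57.2). The KO peaks in Gm525 and LOC100504180 each overlapped another WT peak, and scores are not compared between the lists. LOC100504180 also held the widest site, 904 bp; Syncrip, at 576 bp, and LOC100504180 again, at 572 bp, followed. Just outside, the smallest overlap that made a WT peak in a coding gene shared was 31 bp, in Gm7592. By peak number, the 107 genes with 2 stood next to 60 with 3, led by Sparc (scores 229, 339 and 975), Ybx1 (267, 581 and 700) and Eif5a (98.5, 229 and 654). The lowest scores were 50.2 in H3f3b, 51.3 in Erf, an ETS repressor gene, and 51.3 in Clstn3, the calsyntenin 3 gene, and in H3f3b and Erf a second peak reached 213 and 211.

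Across 39 gene lists, the 4 highest shares were those of hnRNPs, the non-muscle actin cytoskeleton, tubulins, and cytoplasmic and other mRNA-binding proteins. The lists were chosen with earlier results of these data known, so their order is a description only. A site was held by 2.66% of all 21631 protein-coding genes on these chromosomes, which is the background for every count that follows, and 3.18% held any WT-only peak. Over all lists, 157 of 3112 distinct genes (5.05%) held a site, and 419 of the 576 genes were in no list. The lists differ in gene length and in how many genes were set aside for holding 3 or more peaks, and no test was made of any list. The median span was 24.6 kb for genes with a site and 17.3 kb for all coding genes.

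**Figure D5:**
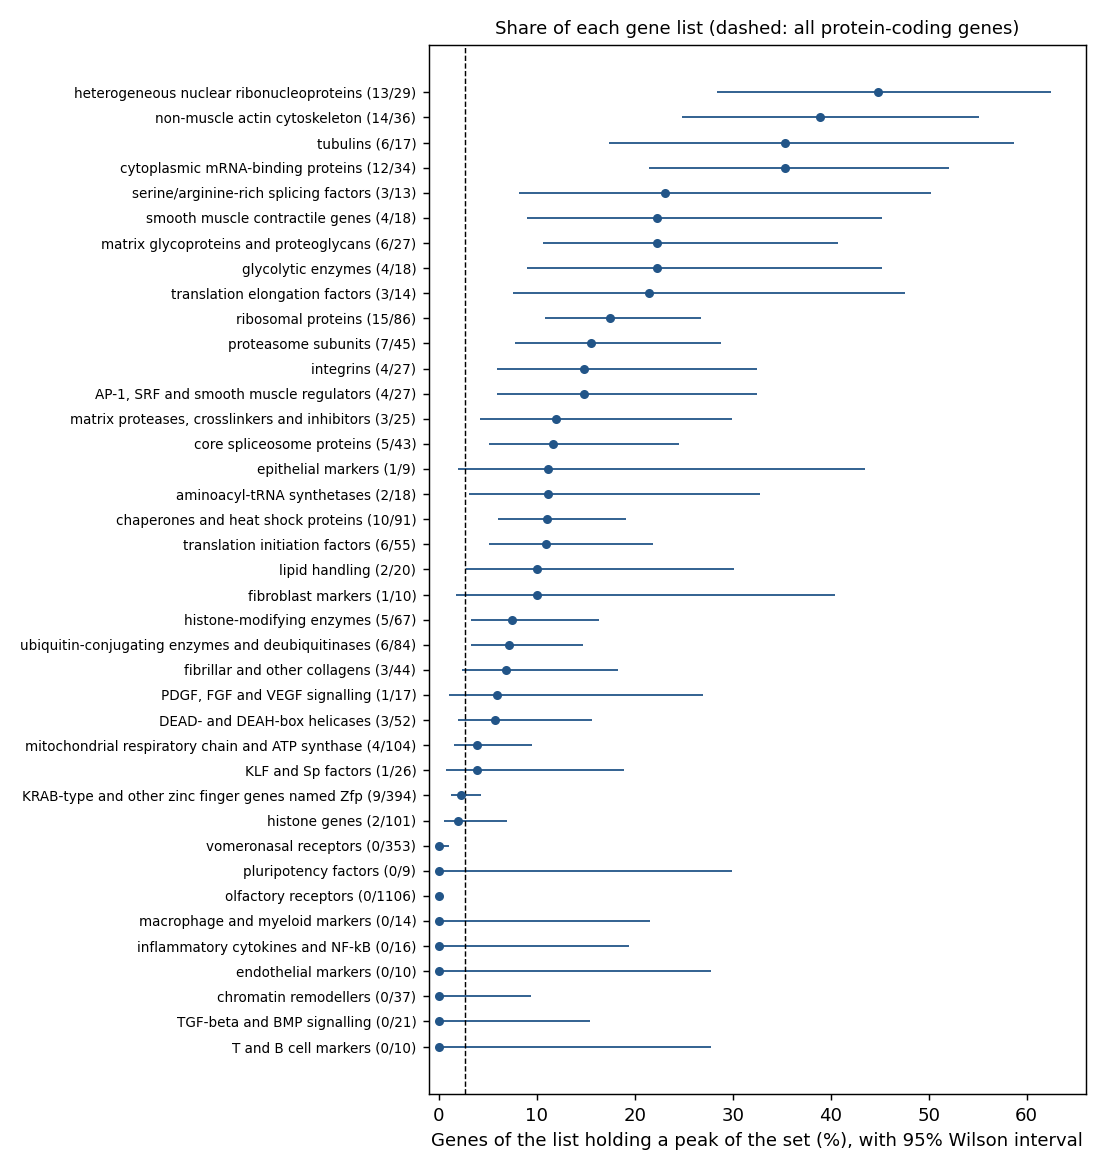
Share of genes (%) in each of 39 lists that held a WT-only peak of the set, with 95% Wilson intervals over genes (for lists with 0 these differ from the limit of 3 counts); counts stand beside each name and the dashed line is the 2.66% of all protein-coding genes. Heterogeneous nuclear ribonucleoproteins reach 44.8%, and 9 lists, including olfactory and vomeronasal receptors, have 0.

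In the list of smooth muscle contractile genes, 4 of 18 held a site (22.2%, 9.0 to 45.2%). This list also includes the transcriptional regulators Srf and Myocd, both of which are counted again in the regulator list below. The count fell to 1 at WT scores of at least 100 and with the WT list cut to the KO list's size, and to 2 with exactly 1 peak a gene. Myl9, the smooth muscle regulatory myosin light chain gene, held 2, at 117 and 60.8. Srf, the serum response factor gene, held 2, at 66.2 and 53.0, the first 0.942 kb from the 3′ end. Tagln, the transgelin gene, had 67.5 at a point that also lies in Pcsk7, and Acta2, the smooth muscle actin gene, had 59.6, 9.43 kb from the 5′ end. Vcl, Tpm1 and Tpm2 held 3 or more and so fell outside the set, and 2 other members, Myocd and Synpo2, held a KO-only peak.

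The non-muscle actin cytoskeleton had 14 of 36 genes with a site (38.9%, 24.8 to 55.1%) and 11 more with 3 or more peaks. After Tmsb4x, Myl6 and Tmsb10 came Plec, the cytolinker plectin gene, at 130. The other 10 had top scores of 55.0 to 111; they were Capzb, Cap1, Myl12b, Myl12a, Sptbn1, Myh10, Flnc, Tpm4, Arpc4 and Lmna, genes of actin capping and cyclase-associated proteins, myosin chains, spectrin, filamin C, tropomyosin, the Arp2/3 complex and lamin A. Of 17 tubulins, 6 held a site (35.3%, 17.3 to 58.7%): Tubb3, Tuba1b, Tubb2a (142 and 61.9), Tubb2b (122) and 2 more at 72.4 and 111. Tubb2a and Tubb2b, like Myl12a and Myl12b, are close copies of each other, so their peaks are uncertain.

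Matrix genes held sites with scores of up to 204. Of 27 glycoprotein and proteoglycan genes, 6 held a site (22.2%, 10.6 to 40.8%), led by Tnc (113 and 70.9), Fbln5 (109), which encodes fibulin 5 of elastic fibres, Fbln1 (99.25) and Lamb1 (77.7), a laminin chain gene; Fn1, Sparc, Vcan and Thbs1 held 3 or more. Of 44 collagen genes, 3 held one (6.82%, 2.35 to 18.2%). These were Col4a1 (123.4), a basement membrane chain, Col6a3 (122), of microfibrils, and Col11a1 (63.4), while 4, among them Col1a1 and Col3a1, held 3 or more and 4 held a KO-only peak. The protease, crosslinker and inhibitor list had 3 of 25 (12%, 4.17 to 29.96%): Loxl1 (204), a crosslinker of elastin, and the metalloproteinase inhibitors Timp3 (146, within Syn3 as well) and Timp2 (75.7). Among 27 integrins, 4 (14.8%, 5.92 to 32.5%) had a site, in Itgb5 (127), Itga11 (77.7 and 73.5), a collagen receptor chain, Itga9 (57.3) and Itgad (52.6).

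Genes of heterogeneous nuclear ribonucleoproteins (hnRNPs), which package and process nascent RNA, had the highest share of all lists, 13 of 29 (44.8%, 28.4 to 62.5%), and 7 of the 13 held 2 sites. Syncrip (350 and 74.9), Pcbp1 (265 and 80.9), Hnrnph1 (245 and 130) and Hnrnpu (225 and 75.6) led, and the other 9 had top scores of 66.8 to 223. Another 5 held 3 or more peaks, and Pcbp3, Hnrnpa1 and Ptbp3 held a KO-only peak. With exactly 1 peak a gene the count was 6. Of 34 cytoplasmic and other mRNA-binding proteins, 12 held a site (35.3%, 21.5 to 52.1%), led by Ewsr1 (179), Qk (122 and 52.9), the quaking splicing regulator gene, Tardbp (90.7), the gene of TDP-43, and Caprin1 (81.9), of stress granules; the other 8 reached 55.7 to 77.7, and 4 of the list held a site at WT scores of at least 100. Of 13 serine/arginine-rich splicing factors, 3 held one (23.1%, 8.18 to 50.3%): Srsf2 (276 and 66.9), Srsf9 (134 and 52.4) and Srsf5 (53.9). Core spliceosome genes had 5 of 43 (11.6%, 5.07 to 24.5%), with Snrnp70 (87.4), Snrnp200 (75.5 and 57.8), Prpf8 (70.7 and 62.0) and Sf3b1 (67.5 and 54.7) ahead; at WT scores of at least 100 none of this list was left. RNA helicases had 3 of 52 (5.77%, 1.98 to 15.6%), Ddx39b (187), Dhx15 (65.8) and Ddx17 (56.2).

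Ribosomal protein genes, with a median span of only 3.17 kb, had 15 of 86 with a site (17.4%, 10.9 to 26.8%), each with 1 site. Rpl37a (209), Rpl10a (203), Rplp1 (179) and Rplp0 (146) led. In Rpl37a, Rpl10a and Rplp0 the midpoint lay 0.493, 0.379 and 0.365 kb from the 5′ end, all in the first 20% of the gene. The other 11 had scores of 54.9 to 134. Of 55 initiation factors, 6 held a site (10.9%, 5.10 to 21.8%): Eif4g1 (193 and 58.5), the scaffold of the cap-binding complex, Eif4a2 (168 and 72.1), Eif4h (166 and 134), Eif3c (158) and 2 more at 108 and 117. Elongation factors had 3 of 14 (21.4%, 7.57 to 47.6%), Eef2 (336 and 97.4), Eef1g (279) and Eef1b2 (99.25), and aminoacyl-tRNA synthetases 2 of 18 (11.1%, 3.10 to 32.8%), Gars (158 and 80.7) and Sars (148).

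Of the lists of protein folding and turnover, proteasome subunits had the highest share. Chaperones had 10 of 91 (10.99%, 6.08 to 19.1%), led by Ppib (280 and 89.9), the cyclophilin B gene, whose higher peak also lay in Snx22, Calr (183 and 181), the calreticulin gene, Hsp90ab1 (164) and Canx (146), the calnexin gene; the other 6 reached 54.6 to 106. Hspa1a and Hspa1b, both among these 6, are near-identical copies. Proteasome subunits had 7 of 45 (15.6%, 7.75 to 28.8%), with Psma7 (134), Psmb7 (116), Psme3 (115) and Psmc5 (83.4) ahead. Ubiquitin conjugation had 6 of 84 (7.14%, 3.32 to 14.7%): Ubb (265 and 194), a polyubiquitin gene, Ube2d3 (212 and 59.0), Ube2m (161), Ube2r2 (97.7) and 2 more at 70.2 and 77.7.

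Lists of transcription and chromatin ranged from no site to 14.8%. Chromatin remodellers had 0 of 37, which allows a share of up to 8.11% (3 counts of the total, counting error only), but Chd4 held 3 or more peaks, and 2 genes of the list held a site when pseudogene spans were ignored. Histone-modifying enzymes had 5 of 67 (7.46%, 3.23 to 16.3%), led by the demethylase gene Kdm5c (107), Brd2 (102), a bromodomain reader, Kdm2a (72.7) and Hdac2 (69.6). Histone genes had 2 of 101 (1.98%, 0.545 to 6.93%), H3f3b (213 and 50.2) and H2az1 (122). Of 26 KLF and Sp factors, the family of KLF4 itself, 1 held a site (3.85%, 0.682 to 18.9%), Sp6 (129). The regulators of the smooth muscle and AP-1 group had 4 of 27 (14.8%, 5.92 to 32.5%), Egr1 (67.1), an immediate early gene, Srf, Mef2d (59.0 and 56.2) and Elk3 (57.8), none of them with a score of 100 or more. Zinc finger genes named Zfp had 9 of 394 (2.28%, 1.21 to 4.28%), close to the background, led by Zfp185 (122), Zfp207 (113 and 57.9), Zfp993 (64.5) and Zfp982 (63.7). Pluripotency factors had 0 of 9.

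Signalling lists were too small to set apart from the background. TGF-beta and BMP signalling had 0 of 21, inflammatory cytokines and NF-kB 0 of 16, and growth factor signalling 1 of 17, Vegfa (54.9), the vascular endothelial growth factor gene, while Fgfr1 held 3 or more peaks. With lists of this size, a count of 0 allows shares of up to 14.3% for the first and 18.75% for the second. In metabolism, glycolytic enzymes had 4 of 18 (22.2%, 9.0 to 45.2%), Aldoa (207 and 133), Pgam1 (85.3), Pgk1 (84.4) and Pfkm (64.3). The respiratory chain and ATP synthase had 4 of 104 (3.85%, 1.51 to 9.47%), Atp5b (331 and 96.5), Atp5g3 (139), Atp5a1 (85.6) and Cox7a2 (83.3, in Tmem30a as well), none of them outside ATP synthase except Cox7a2. Lipid handling had 2 of 20, the lipoprotein receptor gene Lrp1 (79.4) and Apoe (68.5), 0.223 kb from its 3′ end.

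Of the marker lists of other cell types, 2 held a site. Macrophage and myeloid markers had 0 of 14, endothelial markers 0 of 10 and T and B cell markers 0 of 10. These counts allow shares of up to 21.4%, 30% and 30%, and the T cell marker Cd2 held a KO-only peak. Epithelial markers had 1 of 9 (11.1%, 1.99 to 43.5%), Krt14 (68.3). The other epithelial markers of the list held no WT-only peak, and Krt19 held a KO-only peak. Fibroblast markers had 1 of 10 (10%, 1.79 to 40.4%), Fbln1 (99.25), while Col1a1 and Col1a2 of that list held 3 or more peaks. Outside the epithelial list, the keratin genes Krt17 (192) and Krt7 (107) and the desmoplakin gene Dsp (117) also held a site. These 3 were named after their values were seen, and no share of such genes outside the list was counted. A peak is not a measure of expression, so these counts do not give the makeup of the tissue. Of 1106 olfactory receptor genes and 353 vomeronasal receptor genes, families not known for activity in arteries, 0 held a site, which allows up to 0.271% and 0.850%. Their median spans were 0.950 and 0.960 kb, shorter than those of most other lists, and 2 and 4 of them held a KO-only peak.

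Genes with named processed copies were more frequent among these genes than among all genes. A pseudogene named after the gene (symbol with -ps) existed for 34 of the 576, or 5.90% (4.26 to 8.13%), against 1.56% of all coding genes and 10 of the 109 genes with 3 or more peaks (9.17%); no test was made. Those with the highest scores were Tubb3, Eef2, Ubb, Rpl37a, Aldoa and Rpl10a. In such genes the peak is uncertain, since how reads that match a gene and its copy were placed is not given here; its part in the result was not tested. Genes that carry a model or copy name themselves (Gm and LOC numbers, -ps, Aldoart2 and Rps27rt) made up 18 of the 576 (3.12%), against 5.81% of all coding genes.

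Every chromosome of the choice carried sites. Chromosome 11 had the most, 74 (11.1% of the set), and chromosome 14 the fewest, 14. Relative to the number of coding genes, 3.72% of genes on chromosome 18, 3.67% on chromosome 11 and 1.53% on chromosome 14 held a site. The Y chromosome held 160 WT-only peaks and unplaced sequences 28, none of which could enter the set.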

How the data were processed

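Peaks called with a KLF4 antibody were analysed in 1 WT and 1 KO library. Reads were handled with SAMtools 0.1.18 and Bowtie 1.0 on mm10, per the submitters' processing notes. For each library the authors deposited a single list of peaks, each with a score. Peak names show MACS; which version, control and settings it had is not given in the sources used. The deposited score was taken to be −log10 of a p-value multiplied by 10, so the lowest, 50.0 in WT, stands for 1e-05. The lists hold no read counts, so depth is unknown, and absence from a list means no call there, not no binding.

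Gene spans and types came from RefSeq GRCm38.p6; strand and starts came from the promoter table of the same build. A peak was placed by its midpoint. Shares carry 95% Wilson intervals over peaks or genes, for counting error only. Neighbouring peaks are not independent. With 1 library per group no test was made.

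The set and the gene lists were chosen with earlier results of these data known. Named genes are the 15 highest-scoring sites, the 3 widest, the 3 lowest, the 3 nearest a KO peak, the 5 genes with the highest summed pair, up to 6 at a promoter window, up to 4 per list, and 3 genes with 3 peaks; other names complete a count. Of 29 symbols in the AP-1 and smooth muscle regulator list, 27 were found. The selection was checked on simulated lists. The software was matplotlib 3.10.9, scipy 1.17.1, pandas 2.3.3 and numpy 2.4.6 under Python 3.11.15. Exons were not used, so the planned exon and intron placement was not made. Alternatives changed the score limit, the overlap rule, the placement and the peaks per gene.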

Additional observations from a re-analysis of the deposited data

How the results depend on the processing

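No paired analysis was possible because each group had a single library. Raising the WT score limit to 100 before applying the rule gave 301 sites in 257 genes, with a median score of 146, a median width of 170 bp and 101 genes of the lists, and 194 of the 257 genes were among the 576. Cutting the WT list to the size of the KO list gave 350 sites in 303 genes, with medians of 133 and 162 bp, and 247 of these genes were among the 576. Both settings leave fewer WT peaks by construction, so some genes with 3 or more fall to 1 or 2. Keeping only genes with exactly 1 peak gave a median score of 73.3. The other settings (a KO peak within 500 bp, a 50% overlap, any base in the span, pseudogenes ignored, single spans only, and neighbours under 500 bp joined) gave 645 to 750 sites. The share within 1 kb of a gene end ranged from 21.7 to 26.9% over all alternatives. Of 351 list counts under the alternatives, 309 stayed within 1.5 times the main count, 38 were lower and 4 higher. The 309 include lists with 0 in both settings and settings that changed the set little. At WT scores of at least 100, 22 of 39 list counts stayed, and with the WT list at the size of the KO list 25 of 39. At WT scores of at least 100, ribosomal proteins fell from 15 genes to 7 and matrix glycoproteins from 6 to 3. At the same limit, regulators of the AP-1 and smooth muscle group fell from 4 to 0, while collagens went from 3 to 5. With exactly 1 peak a gene, tubulins went from 6 to 2. Without read counts, sites missed in KO at a lower depth cannot be told apart from sites lost there.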
